A study of Mus musculus with 18 samples.

Results

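The cytosolic ribosomal protein genes encode the protein parts of the ribosome of the cytoplasm. They were taken from the deposited gene table as every entry whose symbol begins with Rpl or Rps and a digit, or is Rplp0, Rplp1, Rplp2 or Rpsa, without the Rps6k kinases and without entries named as pseudogenes. The rule gave 89 of 24072 genes. Of these, 77 encode proteins of the large subunit with its stalk (46) or the small subunit (31), 11 are paralogues or retrogenes of such genes, and Rps19bp1 encodes a protein that binds RPS19 and is no subunit. Reads sufficed for a test in 86 of the 89, and the other 3, Rpl10l, Rpl39l and Rps4l, had 0 reads in all 9 libraries, where 3 reads would have been worth 0.337 to 1.10 per 10 M mapped reads.

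The RNA libraries were made from fetal liver pro-B cells of Ebf1-KO, Pax5-KO and WT mice on a C57BL6/J background, 3 libraries per genotype. All 3 genotypes were expanded on OP9 stroma in interleukin-7 and the ligands of KIT and FLT3, at 10 ng/ml each. ATAC-seq, which reads open chromatin by transposase insertion, had 3 further libraries per genotype. EBF1 specifies the B lineage and PAX5 commits cells to it, and loss of either transcription factor blocks B cell development while leaving progenitors that can be expanded in culture. The labels do not say that the libraries of a genotype came from separate fetuses or cultures, so p-values measure the spread between these libraries, which may be technical.

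The small subunit decodes mRNA and the large subunit joins amino acids, and each is an RNA scaffold that carries a fixed set of proteins. Ribosomal protein mRNAs are among the most abundant transcripts of a growing cell, and many begin with a pyrimidine tract (the TOP motif) through which mTOR signalling sets their translation. In the early B lineage, interleukin-7 signalling drives growth, and a shortage of single ribosomal proteins is known to stabilise p53 through free RPL5 and RPL11.

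The libraries held 27.3 to 89.1 M mapped reads, and replicate 3 was the deepest of each genotype. Of the mapped reads, 60.5% to 69.8% lay in exons in Ebf1-KO, 55.5% to 71.4% in Pax5-KO and 47.0% to 59.3% in WT. The deposited values are exon reads per 10 M mapped reads, so this share moves every gene: the median log2 fold change of all 12839 tested genes was 0.31 for Ebf1-KO over WT, 0.28 for Pax5-KO over WT and 0.05 for Ebf1-KO over Pax5-KO, against 0.06, 0.07 and 0.01 when libraries were scaled to their exon reads. Pax5 had 8.53 to 15.7 reads per 10 M in Ebf1-KO, 98.6 to 129 in Pax5-KO and 1314 to 1629 in WT. Ebf1 had 1345 to 1605 in Ebf1-KO, 1328 to 1661 in Pax5-KO and 3252 to 4454 in WT, so its whole-gene value did not set Ebf1-KO apart from Pax5-KO, and whether the remaining reads lie outside the deleted part was not tested. Of 14 pro-B markers, which include Ebf1 and Pax5 themselves, 11 fell in Ebf1-KO over WT and none rose. In Pax5-KO over WT 12 fell and 1 rose. The riser was Cd93, with 7681 to 9428 in Pax5-KO and 2544 to 3580 in WT. Of all genes, 14.4% fell in Ebf1-KO and 11.9% in Pax5-KO. The summed level of 11 myeloid markers was 1191 to 1430 in Ebf1-KO, 785 to 952 in Pax5-KO and 9.51 to 21 in WT. Most of it was Tyrobp in Ebf1-KO (772 to 894) and Cd33 in Pax5-KO (579 to 688). Mpo and Itgam were also higher in both knockouts than in WT. S100a8 and S100a9 had 0 in all libraries, and Csf1r, Csf3r and Lyz2 stayed at 8.53 or less. The summed level of 12 stromal markers was 379 to 459 in Ebf1-KO, 36.7 to 168 in Pax5-KO and 46.5 to 215 in WT. Most of the Ebf1-KO sum was Pdgfrb, with 335 to 448 in Ebf1-KO, 23.1 to 29.9 in Pax5-KO and 0 to 1.41 in WT. Of the 7 stromal markers tested, Pdgfrb alone rose in Ebf1-KO over WT, and the median of the 7 was −0.27. The part of either cell type in the ribosomal protein values was not tested. Fewer cells of a type and less RNA per cell cannot be told apart in such bulk libraries.

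Promoter windows of 250 bases before to 50 after the annotated start (RefSeq, GRCm38.p6) were matched for 67 of the 89 genes. Those shown stand for the TOP and ETS motifs common in the family (Rps6), for windows that overlap an EBF1-bound region (Rps6, Rpl26 and Rpl39), and for the one member that fell in both knockouts (Rpl32l). Capitals mark a pyrimidine tract that begins with C at the start, the ETS motif CCGGAAG on either strand, and the EBF1 core CCCNNGGG.
Rps6, chr4:86857318-86857617, minus strand: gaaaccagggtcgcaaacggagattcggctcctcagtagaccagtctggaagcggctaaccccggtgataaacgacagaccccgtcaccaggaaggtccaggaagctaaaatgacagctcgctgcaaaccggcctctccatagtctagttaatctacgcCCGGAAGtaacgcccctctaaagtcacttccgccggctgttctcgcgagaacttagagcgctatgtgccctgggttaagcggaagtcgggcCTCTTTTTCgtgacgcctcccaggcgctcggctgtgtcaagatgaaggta
Rpl26, chr11:68901316-68901615, plus strand: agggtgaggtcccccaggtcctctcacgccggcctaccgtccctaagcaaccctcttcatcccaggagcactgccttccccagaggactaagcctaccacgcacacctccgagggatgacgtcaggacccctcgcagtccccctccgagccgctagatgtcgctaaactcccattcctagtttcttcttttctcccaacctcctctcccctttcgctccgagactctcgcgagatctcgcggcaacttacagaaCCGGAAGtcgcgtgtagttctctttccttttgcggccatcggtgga
Rpl39, chrX:37085173-37085472, minus strand: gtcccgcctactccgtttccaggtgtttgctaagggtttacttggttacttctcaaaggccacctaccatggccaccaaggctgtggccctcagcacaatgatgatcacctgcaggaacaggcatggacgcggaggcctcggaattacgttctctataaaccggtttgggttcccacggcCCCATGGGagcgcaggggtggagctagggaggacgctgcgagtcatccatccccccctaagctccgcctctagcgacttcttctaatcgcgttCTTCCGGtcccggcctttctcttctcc
Rpl32l, chr10:20208189-20208488, plus strand: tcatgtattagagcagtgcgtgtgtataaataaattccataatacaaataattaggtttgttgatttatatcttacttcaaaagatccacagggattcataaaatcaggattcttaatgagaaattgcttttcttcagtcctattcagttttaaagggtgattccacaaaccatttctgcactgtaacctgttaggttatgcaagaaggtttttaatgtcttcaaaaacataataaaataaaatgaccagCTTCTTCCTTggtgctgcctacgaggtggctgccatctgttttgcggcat

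A TOP tract, counted as C followed by at least 4 pyrimidines at the annotated start, stood in 14 of the 67 windows (20.9%) and in 2.31% of all 17038 promoters of the same length. The tract is 9 bases long in Rps6 and 10 in Rpl32l. The ETS motif CCGGAAG, on either strand, stood in 25 windows (37.3%) and in 12% of all promoters. The YY1 motif AAGATGGCG stood in 4 windows (5.97%, against 2.03%), the E-box CACGTG bound by Myc in 5 (7.46%, against 8.08%), and the EBF1 core CCCNNGGG in 6 (8.96%, against 15.5%), all on both strands. These are counts of letters in a window around one annotated start per gene, and the motifs do not overlap in the windows shown.

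Per kilobase of exon, and averaged over the 9 libraries, the 77 subunit genes had a median level of 4073 reads per 10 M and spanned 27.8-fold. Rpl10, whose product joins the large subunit late, was the highest at 16539 reads per kb, followed by Rps4x at 10729, Rpl10a at 10636, Rpl4 at 10075 and Rps25 at 9182. Rps15a was the lowest subunit gene at 594 reads per kb, with an annotated exon length of 5127 bp, and Rpl22 followed at 815. Most paralogues and retrogenes with reads lay below the subunit median: Rpl22l1 at 1187 reads per kb, above its parent Rpl22, Rps27l at 830, Rpl7l1 at 86.8, Rpl37rt at 24.6, Rpl32l at 6.72 and Rpl3l at 3.92. Rps27rt, which overlaps Rps27, lay above that median, with 1801 to 3746 reads per 10 M over only 339 bp of exon. Rps19bp1 stood at 61.0 reads per kb. The median level of the subunit genes was 4213 reads per kb in Ebf1-KO, 4744 in Pax5-KO, against 3496 in WT. Their median coefficient of variation between replicates was 13.8% in Ebf1-KO, 32.3% in Pax5-KO, against 12.6% in WT.

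**Figure D1:**
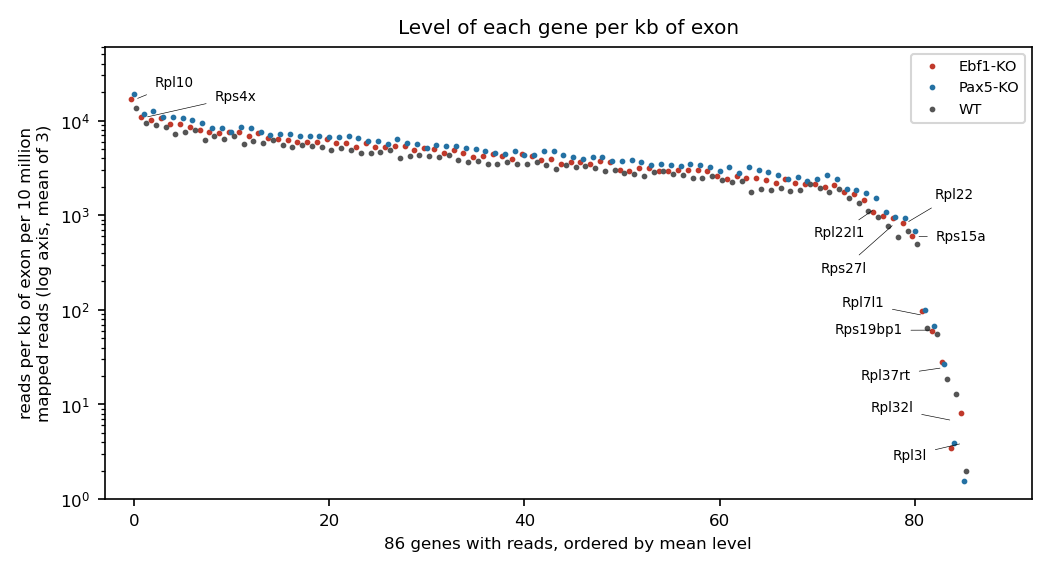
Level of the 86 tested genes per kb of exon (vertical log axis, reads per 10 M mapped reads), ordered by their mean over 9 libraries, with one point per gene and genotype (mean of 3 libraries). Subunit genes form one slope from Rpl10 (16539) to Rps15a (594), and Rpl7l1, Rps19bp1, Rpl37rt, Rpl32l and Rpl3l lie below it.

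Many of these genes share sequence with other annotated genes, which bears on any single value. Of all 76-base stretches (the read length) of a member's transcripts, a median of 46.4% also occurred in transcripts of other annotated genes. The share was above 50% in 40 of the 89 members and reached 92.4% in Rpl5. It counts either strand and any gene, so genes that overlap a member's locus enter it beside copies. Examples are Wdr38 with Rpl35 (54.8%) and Tbc1d8 with Rpl31 (35.4%), both on the opposite strand. The share was 91.9% in Rpl10, 83.2% in Rpl3, 82.5% in Rps12 and 0% in Rpl3l. Rps27 and Rps27rt, Rpl34 and Rpl34-ps1, Rpl30 and Gm12191, and Rpl26 and Gm15772 are entries that overlap on the same strand, so their values are not separate measurements. Another table entry overlapped 37 members, and in 23 of them it was a small nucleolar or small nuclear RNA inside an intron or exon, such as Snora70 in Rpl10. MicroRNA entries, such as Mir3091 in Rps21, were not counted in the 23.

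Within a library the subunit genes moved together. Each gene was set against its own mean over the 9 libraries on the log2(value + 1) scale. The median deviation of the 77 genes was −0.07, −0.08 and 0.24 in Ebf1-KO replicates 1 to 3, −0.18, 0.03 and 0.68 in Pax5-KO, against −0.35, −0.24 and −0.02 in WT. Pax5-KO replicate 3 stood apart: all 77 genes were above their own mean there, by 0.16 to 1.11. The median of all tested genes was 0.08, 0.04 and 0.24 in Ebf1-KO, −0.08, 0.03 and 0.27 in Pax5-KO, against −0.37, −0.18 and −0.06 in WT. The family's median was above that of all genes by the widest margin in Pax5-KO replicate 3. It was below in Ebf1-KO replicates 1 and 2, Pax5-KO replicate 1 and WT replicate 2. In Pax5-KO replicate 2 it was nearly equal, at 0.0301 against 0.0313.

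**Figure D2:**
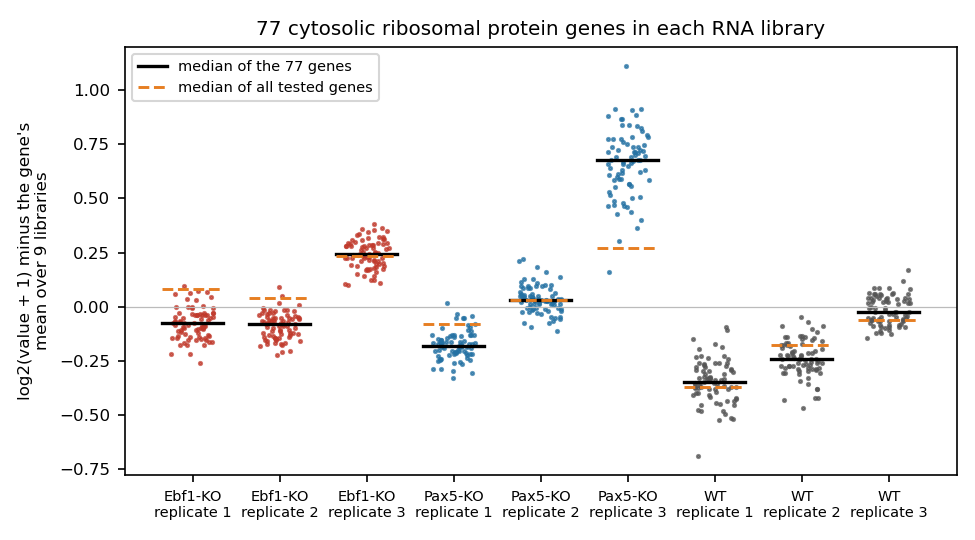
Deviation of each of the 77 subunit genes from its own 9-library mean (vertical axis, log2 of value + 1) in every RNA library, with 1 point per gene. Black lines mark the median of the 77 genes and dashed lines that of all tested genes. In Pax5-KO replicate 3 the black line (0.68) lies above the dashed one (0.27).

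Shorter and longer genes deviated unequally within a library. Over the 77 genes, Spearman's rho of deviation with exon length was 0.43, 0.12 and −0.29 in Ebf1-KO replicates 1 to 3, 0.34, 0.12 and −0.48 in Pax5-KO, against −0.01, 0.34 and −0.15 in WT. These are descriptions over genes that share a library, and genes are not replicates. In Pax5-KO replicate 3 the 39 shorter genes had a median deviation of 0.72 and the 38 longer ones 0.61. The deepest library of each genotype was the one with the lowest rho. The part of depth or RNA quality in these values was not tested.

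As a share of all exon reads, the family took 4.58%, 4.63% and 4.97% in Ebf1-KO, 4.78%, 4.99% and 6.32% in Pax5-KO, against 4.97%, 4.64% and 4.90% in WT. Only Pax5-KO replicate 3 lay outside 4.58% to 4.99%. The mean share was 4.73% ± 0.210 in Ebf1-KO, 5.36% ± 0.838 in Pax5-KO, against 4.84% ± 0.177 in WT (SD, n = 3 each). A two-sided exact permutation test gave p = 0.5 for Ebf1-KO against WT, 0.4 for Pax5-KO against WT and 0.2 for Ebf1-KO against Pax5-KO, where 3 against 3 libraries cannot go below 0.1. Within replicate numbers the share was lower in Ebf1-KO than in Pax5-KO in 3 of 3 pairs, and an exact sign-flip test over the pairs gave p = 0.25, the smallest that 3 pairs allow. The same exact test gave p = 0.75 for Ebf1-KO against WT and 0.5 for Pax5-KO against WT.

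In Ebf1-KO cells few ribosomal protein genes passed the test against WT in the fit without the replicate number as a block. Of the 86 members, 4 rose and 1 fell in Ebf1-KO over WT (5.81%) at an adjusted p of 0.05 in limma, against 55.3% of all tested genes (40.8% higher and 14.4% lower). The 4 were Rpl3, Rps27l, Rpl7l1 and Rpl3l, and Rpl32l fell. The median log2 fold change of the members was 0.22, below that of all genes (0.31), and it was −0.04 with exon total scaling and −0.10 with TMM scaling, so its sign depends on the scaling while its distance from all genes did not (−0.09, −0.10 and −0.10). With exon totals 2 members rose and 3 fell, against 57.8% of all genes called, and with TMM 1 rose and 5 fell, against 57.7%. All libraries of Ebf1-KO lay above all of WT for 23 members and below for Rpl32l, against 48.3% of all genes above, 16.1% below and 64.4% either way.

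Libraries with the same replicate number moved together, and a fit with that number as a block called 39 members higher and 1 lower in Ebf1-KO over WT, against 68.4% of all genes called. Of the 77 subunit genes, 33 rose in that fit. With exon totals and the block 3 members were higher and 5 lower, and with TMM and the block 3 and 14, each against 64.7% of all genes called. Within each number, the median log2 ratio of the 77 genes was 0.27, 0.13 and 0.26, with 77, 69 and 77 of them positive, while that of all genes was 0.45, 0.20 and 0.28. Without Ebf1-KO replicate 3 or without WT replicate 1 the unblocked fit called 1 member higher, without Ebf1-KO replicate 1 or WT replicate 2 it called 2, and without Pax5-KO replicate 3, whose group shares the estimate of spread, it called 14.

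Rpl3, a core protein near the peptidyl transferase centre of the large subunit, was the one subunit gene called at the authors' scaling in the fit of all 9 libraries without the block. With TMM 4 other subunit genes fell, with exon totals 2 did, and with only those 2 genotypes 11 members rose. Rpl3 had 8508, 7935 and 9535 reads per 10 M in Ebf1-KO, against 5566, 6731 and 7504 in WT. The Ebf1-KO libraries were all above the WT ones, with a log2 fold change of 0.40 ± 0.16 (SE; adjusted p = 0.0432, limma). It passed in 8 of 21 other settings and was 0.14 with exon totals and 0.08 with TMM, where the call was lost. Leaving out any of the Ebf1-KO libraries, WT replicate 1 or 2, or Pax5-KO replicate 2 also ended it, at 0.28 to 0.46. Rps19, the small subunit protein most often mutated in Diamond-Blackfan anaemia, had 1311, 1239 and 1442 in Ebf1-KO, against 1250, 1264 and 1428 in WT, and the groups overlapped.

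In Pax5-KO cells more of the family passed the test without the block, and the count depended on which library was left out. In Pax5-KO over WT 10 members rose and 1 fell (12.8%), against 46.5% of all tested genes (34.7% higher and 11.9% lower). The median log2 fold change was 0.36 and that of all genes 0.28. With exon totals it was 0.14, with 8 members higher and 1 lower against 50.6% of all genes called, and with TMM 0.10, with 5 higher and 1 lower against 49.7%, so the distance from all genes was 0.08, 0.07 and 0.07. The block called 69 members higher and 1 lower, against 62.9% of all genes called, and 26 higher when Pax5-KO replicate 3 was also left out. With exon totals and the block 26 were higher and 1 lower, against 58.3% of all genes called, and with TMM and the block 14 and 1, against 57.6%. Without Pax5-KO replicate 3 and without the block no member rose in limma, and 1 fell. Without WT replicate 1 the count was 1 and without WT replicate 2 it was 2, while without Pax5-KO replicate 1 it was 58. Leaving out Ebf1-KO replicate 1 gave 6 and Pax5-KO replicate 2 gave 5. Within each number, the median log2 ratio of the 77 genes was 0.17, 0.26 and 0.68, with 68, 76 and 77 positive, against 0.29, 0.20 and 0.34 for all genes. All Pax5-KO libraries lay above all WT libraries for 7 members, against 40.3% of all genes, and below for Rpl32l, against 13.7% (54% either way).

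Of the stalk proteins, which recruit translation factors to the large subunit, Rplp1 had the widest spread. It had 933, 1258 and 2336 reads per 10 M in Pax5-KO, against 671, 781 and 995 in WT. Replicate 3 of Pax5-KO was the highest and replicate 1 lay within the WT range. The log2 fold change was 0.80 ± 0.26 (adjusted p = 0.0230), and 0.43 without Pax5-KO replicate 3, where it did not pass. It did not pass without WT replicate 1 (0.67) or WT replicate 2 (0.78) either. Rplp0, the stalk base, stood at 0.31 ± 0.18 and Rplp2 at 0.40 ± 0.24, and neither passed without the block (adjusted p = 0.179 and 0.189). With the block both passed (adjusted p = 0.0129 and 0.00786), and neither did when TMM or exon totals went with the block. Over 21 other settings the lowest values were 0.03 for Rplp0 and 0.05 for Rplp2.

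Among small subunit genes, Rps12, which sits near the beak of the subunit, had 2535, 2965 and 4298 in Pax5-KO, against 1850, 1936 and 2401 in WT. The groups did not overlap, with a log2 fold change of 0.64 ± 0.19 (adjusted p = 0.0117), and the call was lost only without Pax5-KO replicate 3 (0.42) among 21 other settings. Among large subunit genes, Rpl27a had 2231, 2550 and 4008 in Pax5-KO, against 1759, 1866 and 2169 in WT, a log2 fold change of 0.56 ± 0.19 (adjusted p = 0.0292). All its Pax5-KO libraries lay above WT, and it passed in 15 of 21 other settings. It was 0.31 without Pax5-KO replicate 3, 0.49 without WT replicate 1 and 0.54 without WT replicate 2, and did not pass there, nor with TMM (0.30), edgeR (0.30) or no filter on low values. Rpl3 had 8059, 8595 and 10224 in Pax5-KO and a log2 fold change of 0.44 ± 0.16 over WT (adjusted p = 0.0315), which also passed in 15 of 21. It did not pass without Pax5-KO replicate 2 or 3 or WT replicate 1 or 2, with only those genotypes, or with no filter. Rpl37, Rps29 and Rpl21 rose by 0.59, 0.57 and 0.50 and are named after their values were seen. Rps6, the subunit protein phosphorylated downstream of mTOR, had 8639, 9435 and 11256 in Pax5-KO, against 7967, 8575 and 9254 in WT, and the groups overlapped (0.18 ± 0.15, adjusted p = 0.333).

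**Figure D3:**
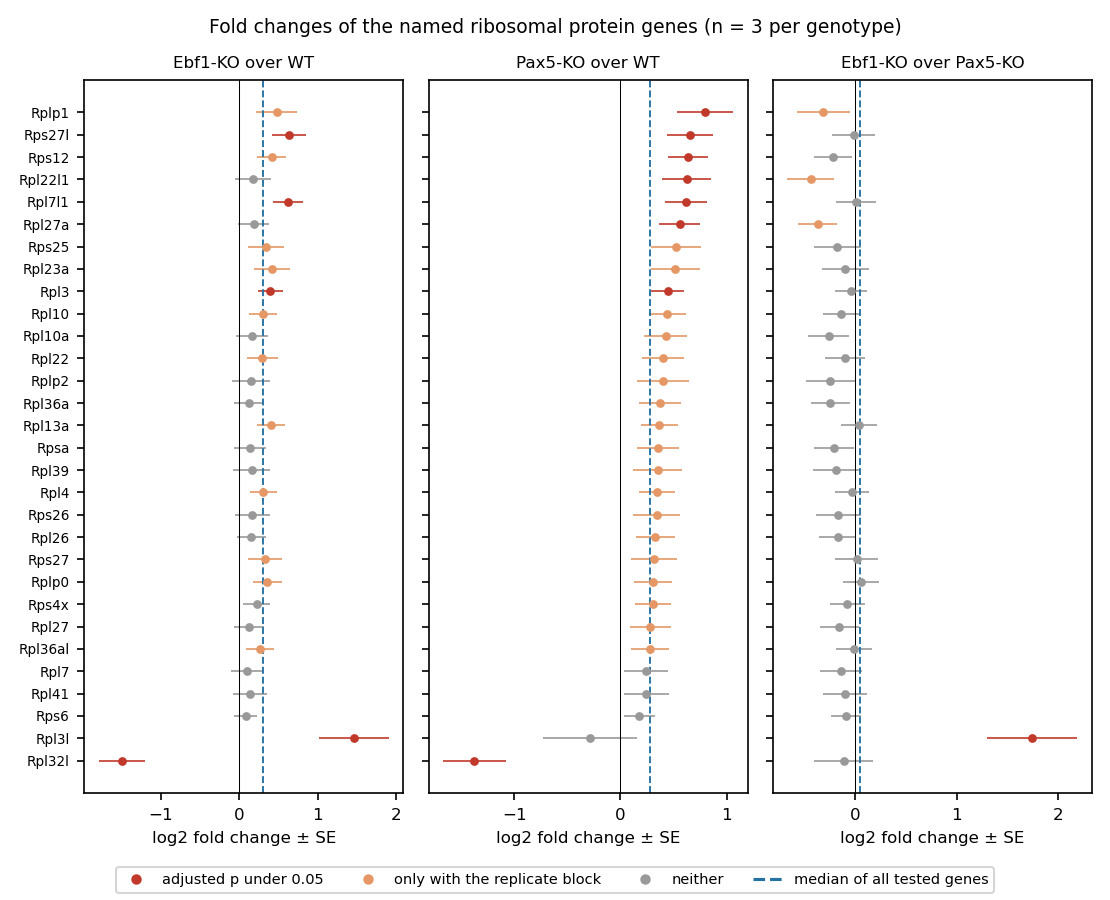
Log2 fold change (horizontal axis, ± SE) of 30 named members in the 3 comparisons, n = 3 libraries per genotype. Red points passed in limma, orange ones only with the replicate number as a block, grey ones in neither, and dashed lines mark the median of all tested genes. Most members lie near the dashed line, and Rpl32l (−1.49 and −1.38) and Rpl3l (1.46 and 1.75) lie away from it.

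Set directly against each other, the knockouts differed in 1 member in the fit without the block. In Ebf1-KO over Pax5-KO, Rpl3l rose and no member fell (1.16%), against 30.9% of all genes called in limma (17.5% higher and 13.3% lower). With exon totals 1 member was higher and 4 lower, against 40.4% of all genes called, and with TMM 1 and 4, against 40%. At an unadjusted p of 0.05, 2 members passed, and edgeR called 8 lower and DESeq2 10 lower. The median log2 fold change was −0.14, that of all genes 0.05, and the distance from all genes was −0.19 with each of the 3 scalings. Within each number, the median of the 77 genes was 0.10, −0.12 and −0.43, with 71, 7 and 0 of them positive, so the sign differed between replicate 1 and the others. With the block 1 member was higher and 5 lower, against 43.8% of all genes, and none was lower when Pax5-KO replicate 3 was also left out. With exon totals and the block 22 were lower, against 48.5% of all genes called, and with TMM and the block 28, against 48.4%. Only Rpl3l had groups that did not overlap, against 41.5% of all genes. The 5 that were lower with the block were Rpl21, Rpl27a, Rpl37a, Rplp1 and Rpl22l1, named after their values were seen. Rpl27a was lower in Ebf1-KO in all 3 numbers, by −0.13, −0.37 and −0.62, and Rpl22l1 by −0.04, −0.50 and −0.79. Rplp1 was 0.07, −0.30 and −0.73.

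Of the 8 paralogues and retrogenes tested, 3 rose and 1 fell in each knockout over WT (50%), near the 55.3% of all genes called in Ebf1-KO and the 46.5% in Pax5-KO. Rpl32l, a copy of Rpl32 on chr10:20208439-20209030, plus strand, had 2.48, 1.10 and 2.59 reads per 10 M in Ebf1-KO, 1.42, 2.85 and 2.58 in Pax5-KO, against 9.82, 5.64 and 7.14 in WT. All 6 knockout libraries were below all WT ones. These are 9, 3 and 15 reads in Ebf1-KO, 5, 9 and 23 in Pax5-KO, against 35, 16 and 45 in WT. The log2 fold change was −1.49 ± 0.30 in Ebf1-KO (adjusted p = 5.37e-04) and −1.38 ± 0.30 in Pax5-KO (adjusted p = 0.00144), on the log2(value + 1) scale, which understates changes of such low values, and it passed in all 21 other settings of both comparisons. In the authors' deposited table the log2 fold change was −2.12 for Ebf1-KO and −1.99 for Pax5-KO. Its parent gene Rpl32 had 4067, 4216 and 5479 in Ebf1-KO, 3703, 4467 and 7567 in Pax5-KO, against 3366, 3567 and 4267 in WT, and did not pass in either (0.29 and 0.43).

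Rpl32l lies inside an intron of Map7 on the same strand, 2964 bp after one Map7 exon and 20725 bp before the next. Map7, which encodes a microtubule-associated protein, had 12.7, 9.53 and 8.28 reads per 10 M in Ebf1-KO, 11.7, 6.34 and 9.77 in Pax5-KO, against 402, 399 and 425 in WT. Its log2 fold change over WT was −5.22 ± 0.23 for Ebf1-KO and −5.35 ± 0.23 for Pax5-KO. Reads from unspliced Map7 RNA would be counted to Rpl32l, and their part in the Rpl32l values was not tested.

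Rpl3l, the paralogue of Rpl3 known from heart and skeletal muscle, had 22.6, 4.76 and 6.21 reads per 10 M in Ebf1-KO, 3.70, 1.58 and 1.12 in Pax5-KO, against 3.65, 2.47 and 1.90 in WT. Ebf1-KO replicate 1 was the highest, with 82 reads, and the other Ebf1-KO libraries, with 13 and 36, lay above all of Pax5-KO and WT. The log2 fold change was 1.46 ± 0.45 in Ebf1-KO over WT (adjusted p = 0.0119) and 1.75 ± 0.45 over Pax5-KO (adjusted p = 0.00661), and −0.29 ± 0.45 in Pax5-KO over WT. The rise over Pax5-KO passed in all 21 other settings, at 1.03 to 2.48. That over WT passed in 18, and did not with TMM (1.20), with exon totals (1.25) or without Ebf1-KO replicate 1 (0.84). In the authors' deposited table Rpl3l stood at 1.85 and 1.76 for Ebf1-KO over WT, by transcript.

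Rps27l, a paralogue of Rps27 that is a known p53 target, had 403, 457 and 569 reads per 10 M in Ebf1-KO, 356, 437 and 697 in Pax5-KO, against 263, 298 and 352 in WT. Both knockouts lay above WT in every library, by 0.64 ± 0.22 in Ebf1-KO (adjusted p = 0.0204) and 0.66 ± 0.22 in Pax5-KO (adjusted p = 0.0218). The Ebf1-KO call was lost with TMM (0.32), edgeR (0.32) and DESeq2 (0.33), without Ebf1-KO replicate 3 (0.50), WT replicate 1 (0.54) or WT replicate 2 (0.63). The Pax5-KO call was lost without Pax5-KO replicate 3 (0.38), WT replicate 1 (0.56) or WT replicate 2 (0.65). Rps27 itself had 2382, 2250 and 2904 in Ebf1-KO, 1880, 2135 and 3791 in Pax5-KO, against 1955, 1818 and 2215 in WT, with adjusted p of 0.208 and 0.236.

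Rpl7l1, a paralogue of Rpl7 that takes part in ribosome assembly, had 233, 237 and 291 in Ebf1-KO, 217, 217 and 338 in Pax5-KO, against 134, 168 and 194 in WT. It was 0.62 ± 0.19 higher in Ebf1-KO (adjusted p = 0.0134) and in Pax5-KO (adjusted p = 0.0175), without overlap. The call was lost without Ebf1-KO replicate 3 (0.52) or WT replicate 1 (0.48) in Ebf1-KO, and without Pax5-KO replicate 3 (0.41) or WT replicate 1 (0.48) in Pax5-KO. Rpl7 did not pass in either (0.10 and 0.25). Rpl22l1, whose parent Rpl22 is needed for normal lymphocyte development, had 476, 441 and 607 in Ebf1-KO, 489, 624 and 1051 in Pax5-KO, against 377, 452 and 513 in WT. It rose in Pax5-KO by 0.62 ± 0.23 (adjusted p = 0.0368), was 0.18 ± 0.23 in Ebf1-KO (adjusted p = 0.521), and was called in 13 of 21 other settings. The call was lost without Ebf1-KO replicate 1, Pax5-KO replicate 2, Pax5-KO replicate 3 (0.32) or WT replicate 1 or 2, and with TMM (0.37), edgeR (0.39) or no filter on low values. Rpl36al, a retrogene of Rpl36a, passed in neither knockout without the block (0.26 and 0.28).

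Rpl10, Rpl36a, Rpl39 and Rps4x lie on the X chromosome. The Ebf1-KO libraries differed from the others in sex-linked transcripts: Xist, the RNA of the inactive X, had 41026 to 47861 reads per 10 M in Ebf1-KO, 1.58 to 42.8 in Pax5-KO and 15.4 to 37.3 in WT, and the Y-linked Kdm5d 0.690 to 2.75 in Ebf1-KO, 768 to 825 in Pax5-KO and 578 to 658 in WT. Sex and loss of EBF1 therefore cannot be told apart in the Ebf1-KO comparisons. Rpl10 had 13319, 12101 and 14456 in Ebf1-KO, 11812, 13824 and 19147 in Pax5-KO, against 9996, 10800 and 11543 in WT. It lay above WT in every knockout library but did not pass (0.30, adjusted p = 0.165, and 0.44, adjusted p = 0.0536), and passed with the block (adjusted p = 0.0352 and 0.00419). With TMM and the block it passed in neither, with exon totals and the block in Pax5-KO alone (0.22), and over 21 other settings its Ebf1-KO value went down to −0.03. Rps4x, Rpl36a and Rpl39 had log2 fold changes of 0.23, 0.12 and 0.16 in Ebf1-KO over WT, and none passed with or without the block at the authors' scaling. With TMM and the block Rpl36a was −0.20 and passed (adjusted p = 0.0453).

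Other parts of the translation machinery were described by lists of genes, by counts and medians. Of 77 mitochondrial ribosomal protein genes, 8 rose and 1 fell in Ebf1-KO, with a median log2 fold change of 0.22, and 17 rose in Pax5-KO, with a median of 0.36, beside 0.22 and 0.36 for the cytosolic family. Of all genes, 40.8% rose in Ebf1-KO and 34.7% in Pax5-KO. With TMM 2 of the 77 mitochondrial genes rose and 20 fell in Ebf1-KO, against 57.7% of all genes called. In Pax5-KO 11 rose and 5 fell with TMM, against 49.7%. Mrps10 and Mrps34 rose by 1.07 and 1.03 in Pax5-KO. Of 18 translation factors with TOP mRNAs, 5 rose in each knockout and none fell, with medians of 0.26 and 0.23, a smaller share than of all genes in both. Eif4b, a helper of the cap-binding helicase, rose in both knockouts, by 0.66 (Ebf1-KO) and 0.60 (Pax5-KO). Eef1b2, Eef1a1 and Eef1g, which encode parts of elongation factor 1, were called in both. The ubiquitin fusion genes and Rack1, 3 genes with an entry, gave no call in limma. With the block 2 rose in Ebf1-KO and 3 in Pax5-KO, against 68.4% and 62.9% of all genes called. All these medians were lower with exon totals or TMM, as for the family, and those of Ebf1-KO over WT were then near or below 0.

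Ribosome assembly factors process ribosomal RNA and load the proteins onto it. Of 35, 2 rose and 1 fell in Ebf1-KO over WT (median 0.05), 8 rose and 1 fell in Pax5-KO over WT (median 0.37), and 5 fell in Ebf1-KO over Pax5-KO (median −0.32), against a median of 0.05 for all genes in that comparison. Of all genes, 55.3% were called in Ebf1-KO over WT, 46.5% in Pax5-KO over WT and 30.9% in Ebf1-KO over Pax5-KO. With TMM 16 fell in Ebf1-KO over WT, against 57.7% of all genes called. In Ebf1-KO over Pax5-KO 21 were lower with the block, against 43.8% of all genes called, and 26 with TMM, against 40%. Gnl3, a nucleolar GTPase, was lower by −0.66 and Nop56, of the box C/D snoRNPs, by −0.53. Nop56 had 4182, 4622 and 5867 reads per 10 M in Ebf1-KO, 6068, 6217 and 9004 in Pax5-KO, against 4306, 5542 and 5471 in WT. Bysl, needed for small subunit maturation, fell in both knockouts over WT, by −1.19 and −1.09. Of 14 RNA polymerase I genes, 2 rose and 2 fell in Ebf1-KO and 7 rose and 1 fell in Pax5-KO. Of 11 hosts of small nucleolar RNAs, 2 rose in Ebf1-KO and 4 in Pax5-KO. Snhg3 and Snhg4 were lower in Ebf1-KO over Pax5-KO.

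**Figure D4:**
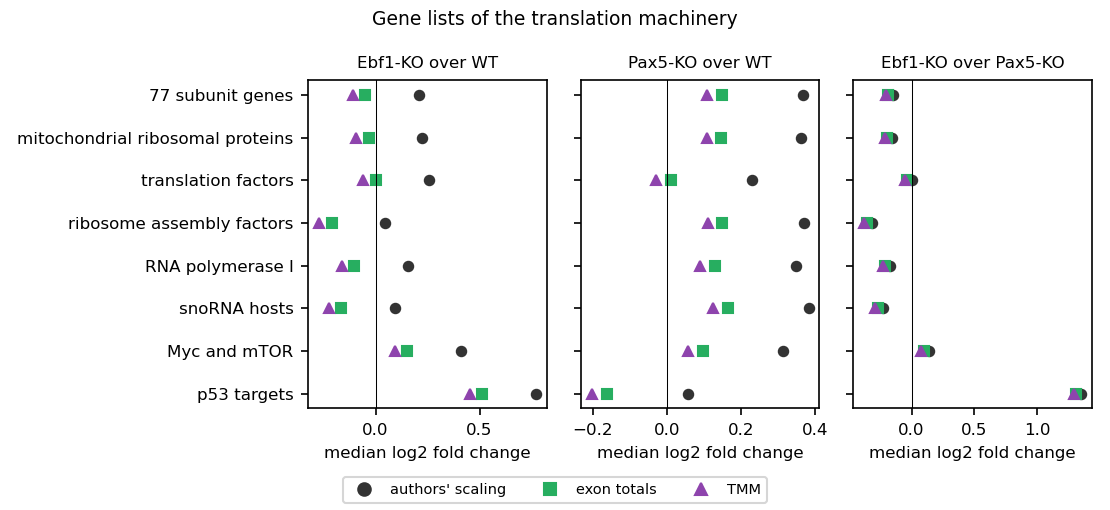
Median log2 fold change (horizontal axis) of 8 gene lists, including the 77 subunit genes, in the 3 comparisons under 3 scalings of the libraries (marker shapes). In Ebf1-KO over WT the subunit genes are at 0.21 with the authors' scaling, −0.05 with exon totals and −0.11 with TMM, and in Ebf1-KO over Pax5-KO the assembly factors are at −0.32, −0.36 and −0.38.

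Open chromatin was measured only at regions that the authors list as bound by EBF1, PAX5 or both. Of 14377 such regions, 45 had one of 27 members as the nearest start, and 11 of these lay within 1000 bp of it. In Pax5-KO over WT 7 of the 11 fell and none rose, where 48.1% of the 2514 bound regions so near any start fell. In Ebf1-KO over WT 2 fell, where 26% of those regions did, and in Ebf1-KO over Pax5-KO 2 were higher, where 11.5% were. Over all 45 regions, TMM scaling took the number called in Pax5-KO over WT to 13, against 26 with the authors' scaling. The medians were −0.28 in Ebf1-KO over WT, −0.71 in Pax5-KO over WT and 0.40 in Ebf1-KO over Pax5-KO, beside −0.34, −0.62 and 0.27 for all bound regions near starts. None of the 7 genes fell in RNA.

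Rpl26, whose promoter is printed above and overlaps its EBF1-bound region by 240 bp, had 13.6, 10.6 and 15.7 ATAC tags per 10 M in Ebf1-KO, 8.11, 5.57 and 9.12 in Pax5-KO, against 14.4, 15.7 and 17.4 in WT. All Pax5-KO libraries lay below the others, by −0.99 ± 0.27 against WT (adjusted p = 0.00141), and Ebf1-KO over Pax5-KO was 0.74 ± 0.27 (adjusted p = 0.0381). Rps6 had 24.9, 33.6 and 34.6 in Ebf1-KO, 27.9, 20.9 and 20.4 in Pax5-KO, against 51.0, 23.1 and 40.1 in WT. Its fall in Pax5-KO was −0.64 ± 0.27 (adjusted p = 0.0379), although the groups overlapped. At Rpl39, the region with the EBF1 core printed above had 12.1, 13.0 and 17.9 in Ebf1-KO, 11.6, 10.9 and 6.95 in Pax5-KO, against 22.9, 14.2 and 15.0 in WT. It fell in Pax5-KO by −0.76 ± 0.27 (adjusted p = 0.0136) and did not pass in Ebf1-KO (−0.25 ± 0.27, adjusted p = 0.456). Rpl27, the one near-start region of the family listed for both factors, fell in Pax5-KO by −0.71 ± 0.26 (adjusted p = 0.0170), and Rpl41 and Rpl22l1 fell by −0.89 and −0.73. At Rpl22l1 RNA rose in Pax5-KO while its region, inside the first intron, fell.

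**Figure D5:**
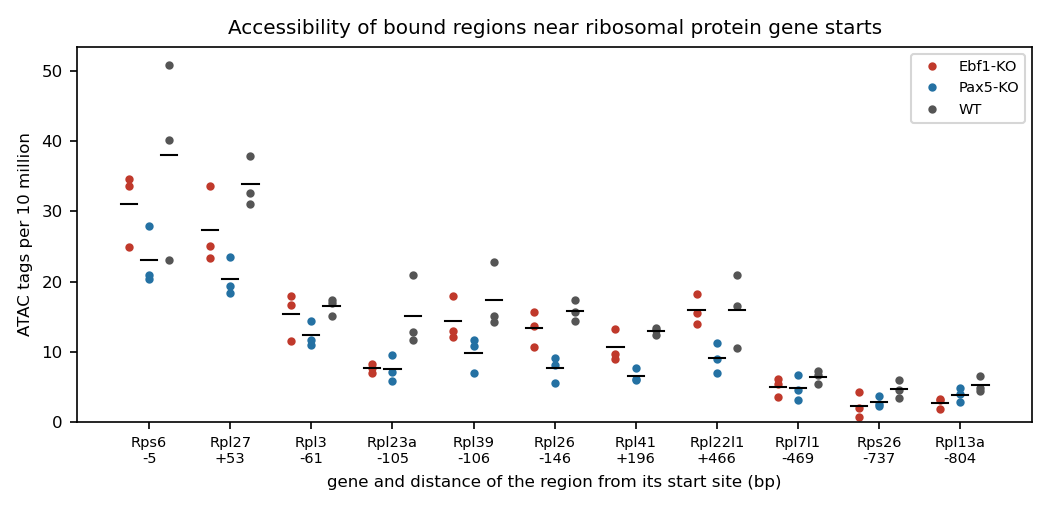
ATAC tags per 10 M (vertical axis) in the 11 bound regions within 1000 bp of a member's start, 1 point per library and a bar for the mean of 3, ordered by distance from the start in bp. The Pax5-KO points of Rpl26 (5.57 to 9.12) lie below those of Ebf1-KO and WT.

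Regions that fell in both knockouts include the promoter of Rpl23a and distant regions. The sequences of 3 regions (GRCm38, plus strand, read from the reference at the deposited coordinates) are shown as the EBF1-only region near a start that fell in both, the PAX5-only region with the largest fall in Ebf1-KO, and the one region of the family that was lower in Ebf1-KO than in Pax5-KO. None holds the EBF1 core, so no letters are in capitals.
Rpl23a, chr11:78183554-78183824: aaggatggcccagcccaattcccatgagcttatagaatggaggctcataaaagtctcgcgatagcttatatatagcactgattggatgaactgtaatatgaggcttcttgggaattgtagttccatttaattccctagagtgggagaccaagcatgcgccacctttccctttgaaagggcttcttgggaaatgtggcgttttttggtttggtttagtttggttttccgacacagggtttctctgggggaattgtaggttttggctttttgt
Rpl37a, chr1:72746468-72746716: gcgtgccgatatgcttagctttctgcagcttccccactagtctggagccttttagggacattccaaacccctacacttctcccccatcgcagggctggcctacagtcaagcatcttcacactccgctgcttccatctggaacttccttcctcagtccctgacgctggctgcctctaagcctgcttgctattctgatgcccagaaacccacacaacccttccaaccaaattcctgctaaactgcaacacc
Rps23, chr13:91053489-91053759: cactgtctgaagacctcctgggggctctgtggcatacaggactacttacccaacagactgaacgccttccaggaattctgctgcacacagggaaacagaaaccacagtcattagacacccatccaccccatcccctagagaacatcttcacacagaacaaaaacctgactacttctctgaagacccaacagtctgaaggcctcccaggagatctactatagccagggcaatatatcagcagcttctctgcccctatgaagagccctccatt

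The Rpl23a region had 7.01, 8.17 and 7.68 tags per 10 M in Ebf1-KO, 7.05, 5.83 and 9.56 in Pax5-KO, against 20.9, 12.8 and 11.7 in WT. All knockout libraries lay below WT, by −0.86 ± 0.28 in Ebf1-KO (adjusted p = 0.00670) and −0.91 ± 0.28 in Pax5-KO (adjusted p = 0.00469), while Rpl23a RNA was 0.42 ± 0.23 and 0.52 ± 0.23 and passed in neither without the block. The Rpl37a region, 35332 bp from that start and intergenic, had 0.390, 1.21 and 0.32 in Ebf1-KO, 0.710, 0.530 and 1.30 in Pax5-KO, against 15.0, 9.12 and 13.2 in WT, falling by −3.05 ± 0.37 in Ebf1-KO (adjusted p = 1.54e-11) and −2.86 ± 0.37 in Pax5-KO (adjusted p = 2.37e-10). A PAX5-only region whose nearest start is Rps15a, at −3974 bp from it and in the last exon of another gene, had 7.79, 4.84 and 5.76 in Ebf1-KO, 2.47, 3.45 and 3.48 in Pax5-KO, against 44.4, 43.3 and 48.2 in WT, falling by −2.72 ± 0.28 in Ebf1-KO and −3.49 ± 0.28 in Pax5-KO. Rps15a RNA had 2777, 2837 and 3614 in Ebf1-KO, 2674, 3047 and 4858 in Pax5-KO, against 2223, 2432 and 2953 in WT, and did not pass without the block.

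The region nearest to Rps23, 130502 bp from that start in an intron of another gene, had 1.17, 0.910 and 1.92 tags in Ebf1-KO, 8.47, 5.04 and 3.91 in Pax5-KO, against 12.4, 6.27 and 10.9 in WT. It fell in Ebf1-KO over WT by −2.19 ± 0.34 (adjusted p = 2.59e-08) and over Pax5-KO by −1.51 ± 0.34 (adjusted p = 3.27e-04). Over all 45 regions, 4 rose and 19 fell in Ebf1-KO, against 54.4% of all bound regions called (3.28% up, 51.1% down). In Pax5-KO 1 rose and 25 fell, against 53.7% (2.11% up, 51.5% down). In Ebf1-KO over Pax5-KO 7 were higher and 1 lower, against 21.7% (9.06% up, 12.6% down). The one that rose in both lay 87973 bp from Rplp1, with 7.79, 9.08 and 11.2 in Ebf1-KO, 8.11, 4.77 and 6.95 in Pax5-KO, against 2.61, 2.56 and 2.59 in WT. The EBF1 core stood in 5 of the 25 EBF1-only regions of the family, among them those of Rpl39 and Rpl13a near the start, and in 57.8% of all 7810 EBF1-only regions. The nearest start is a position and no evidence that a region acts on the gene.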

How the data were processed

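RNA-seq and ATAC-seq were measured in 3 libraries of each of 3 genotypes. The RNA values are a signal that the authors deposited as exon reads per gene scaled to 10 M mapped reads by HOMER, per the file headers. The deposited ATAC signal is tags per bound region scaled to 10 M tags, per the file headers. The authors' deposited lists of genes up or down over WT, with log2 fold changes and adjusted p-values, were searched for all 89 members. Only Rpl32l and Rpl3l were in them. Reads were single, with 76 cycles, per the labels' protocols. Bowtie2, TopHat, HOMER, edgeR and DESeq2 are named with mm10 and GRCm38, per the submitters' processing notes. Whether kit and counting kept strand: not given in the sources used here. A further 36 columns of per-sample values match no sample and were not used.

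Whole reads were recovered from the steps of the low values (100% whole within 0.1 reads) and used for the filter on low values (filterByExpr) and the count tests. Fold changes are on the log2(value + 1) scale and come from limma 3.58.1 in R 4.3.3, with a mean per genotype over all 9 libraries of an assay, two-sided, with Benjamini-Hochberg adjustment over 12839 genes or 14365 regions (at least 10 tags over 9 libraries) and a threshold of 0.05. Genes were called higher or lower by edgeR 4.0.16 in 3809 and 3570 cases in Ebf1-KO over WT, 3350 and 3051 in Pax5-KO over WT, and 2626 and 2558 in Ebf1-KO over Pax5-KO. DESeq2 1.42.0 was the other count test, and sequences were read with Python 3.11.15. The fits were tested on simulated data. In RNA they recovered 46% to 49.2% of 1.5-fold changes and 75% to 82.4% of 2-fold changes. In ATAC they recovered 3.64% to 7.27% and 26.8% to 34.1%. Of the calls, 4.94% to 7.05% were false in RNA and 2.41% to 3.95% in ATAC. In RNA, deviations from the genotype means correlated between libraries of the same number in every pair of genotypes (0.116 to 0.439), so the number was also fitted as a block. The fit reported first leaves this block out and so ignores any pairing, and counts with the block are given beside it. Other scalings, pseudocounts, filters, the replicate block and each library left out were tried. Read floors and low counts cover counting error only.

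Genes named with values were the strongest calls without overlap, paralogue pairs, the highest and lowest levels per kb, genes with a bound region within 1000 bp, X-linked and stalk genes, and leading genes of each list. The members, lists and rules were chosen with earlier results of these data known.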

Additional observations from a re-analysis of the deposited data

How the results depend on the processing

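Genes higher in Ebf1-KO over WT, 4 as reported, numbered 1 with TMM, 2 with exon totals, 2 with edgeR, 2 with DESeq2, 11 with only those genotypes, 39 with the replicate block and 44 with the block and without Pax5-KO replicate 3. Those lower, 1 as reported, numbered 5 with TMM, 3 with exon totals, 7 with edgeR and with DESeq2, 14 with TMM and the block and 5 with exon totals and the block, and the median was −0.10 with TMM, with or without the block. Genes higher in Pax5-KO over WT, 10 as reported, numbered 5 with TMM, 4 with no filter, 5 with edgeR, 69 with the block, 26 with exon totals and the block and 26 with the block and without Pax5-KO replicate 3. Genes lower in Ebf1-KO over Pax5-KO, 0 as reported, numbered 4 with TMM and with exon totals, 5 with the block, 8 with edgeR, 10 with DESeq2, 28 with TMM and the block and 22 with exon totals and the block. The fits that combine the block with a scaling or a left-out library, and the paired test of the family's share of reads, were chosen after seeing the data.

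With 1 library left out, genes higher numbered 1 to 14, 0 to 58 and 1 in the 3 comparisons, genes lower 1, 1 and 0 to 3, and the medians ran 0.12 to 0.30, 0.13 to 0.54 and −0.32 to 0.10. Bound regions called numbered 16 to 23, 19 to 28 and 2 to 8. They numbered 2, 7 and 2 within 1000 bp of a start, 13 with TMM in Pax5-KO over WT and 5 with a pseudocount of 5 in Ebf1-KO over Pax5-KO. The block, where ATAC libraries shared only a number (correlations −0.0523 to 0.11), gave 23, 26 and 8, as without it.

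In Ebf1-KO over WT, Rps6 turned to −0.23 with TMM and with DESeq2, −0.24 with edgeR and −0.17 with exon totals, and was −0.23 and −0.17 with those scalings and the block. With TMM and the block Rpl7 was −0.22, Rpl36a −0.20 and Rpl27 −0.20. Of 1888 RNA values of named genes under alternatives, 1720 kept direction and side of the threshold, 53 lost the call, 106 gained it and 9 reversed. The cause was not tested. Depth limits Rpl3l and Rpl32l, with 3 to 82 reads per library.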

Other observations

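Free ribosomal proteins can stabilise p53. A list of p53 genes held Trp53 itself and its inhibitor Mdm4 beside genes that respond to p53. Of its 13 tested genes, 9 rose and none fell in Ebf1-KO over WT, 4 rose and 2 fell in Pax5-KO over WT, and 8 rose in Ebf1-KO over Pax5-KO, where 40.8%, 34.7% and 17.5% of all genes rose. The medians were 0.77, 0.06 and 1.35, beside 0.31, 0.28 and 0.05 for all genes, and with TMM they were 0.45, −0.20 and 1.29. Cdkn1a, an inhibitor of cyclin-dependent kinases, had 3774, 1815 and 1833 reads per 10 M in Ebf1-KO, 703, 795 and 1039 in Pax5-KO, against 154, 171 and 157 in WT. Pmaip1, which encodes the death-promoting protein NOXA, had 940, 828 and 814 in Ebf1-KO, 91.4, 107 and 81.4 in Pax5-KO, against 46.0, 76.4 and 64.9 in WT. Both rose in each knockout. Rps27l, also a p53 target, rose in both knockouts, by 0.64 (Ebf1-KO) and 0.66 (Pax5-KO). Among other settings given above, its Ebf1-KO call was lost with TMM (0.32) and its Pax5-KO call without Pax5-KO replicate 3 (0.38). Zmat3 and Ccng1 went the other way in Pax5-KO. Zmat3 had 941, 1066 and 1228 there, against 1801, 2349 and 2421 in WT. Ccng1 had 1640, 2029 and 2207 in Pax5-KO, against 2581, 3145 and 3408 in WT. Whether ribosomal proteins had a part in any of these values was not tested.

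Mtor fell in both knockouts, and Mycn and Myc each rose in one of them. Mtor, the kinase that sets translation of TOP mRNAs, had 757, 794 and 925 reads per 10 M in Ebf1-KO, 685, 794 and 941 in Pax5-KO, against 3406, 4104 and 4362 in WT, falling by −2.26 and −2.30. Mycn had 1247, 1563 and 1769 in Ebf1-KO, 147, 231 and 262 in Pax5-KO, against 197, 257 and 234 in WT, and rose by 2.72 in Ebf1-KO over WT. Myc, of the same family of growth regulators, had 1223, 1979 and 2424 in Ebf1-KO, 2908, 4020 and 5935 in Pax5-KO, against 1010, 2629 and 2875 in WT. It rose by 1.06 in Pax5-KO over WT (adjusted p = 0.0241) and was lower by −1.19 in Ebf1-KO over Pax5-KO (adjusted p = 0.0178). Of 24 genes of Myc and mTOR signalling, 12 rose and 1 fell in Ebf1-KO, and 9 rose and 2 fell in Pax5-KO, near the 40.8% and 34.7% of all genes that rose. With TMM scaling 9 rose and 4 fell in Ebf1-KO, against 57.7% of all genes called. In Pax5-KO 6 rose and 6 fell, against 49.7%.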
